A study of Saccharomyces cerevisiae with 20 samples.

Results

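Translation efficiency at 37C was compared with that at 30C in yeast cells whose DED1 regulatory regions drove the DBP1 coding sequence, called DBP1 cells here. Efficiency was the ratio of ribosome footprint RPKM to mRNA RPKM of the same gene in the same culture, where RPKM is reads scaled by gene length and by library depth. Of the 6679 genes in the table, 4977 averaged 5 RPKM or more in both assays over the 10 cultures of the study and were tested. The 5 cultures of DBP1 cells, 3 at 30C and 2 at 37C, gave 10 libraries, 5 of mRNA and 5 of footprints. The comparison cultures were DED1 cells, in which the DED1 regulatory regions drove DED1 itself, in the same numbers at each temperature. All cultures were of the SK1 strain background, grew aerated in the rich medium YEPD at either temperature until an optical density of 0.6. Before harvest they were held for 1 min in 100 uM cycloheximide, which keeps ribosomes on mRNA. Cultures are numbered as in the labels, which do not say whether they were started separately, so p-values measure only the spread between these samples. In both strains the sample titles end in 30Cexp at 30C and in 37exp at 37C. If these mark separate experiments, an effect of experiment cannot be told apart from one of temperature.

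Dbp1 and Ded1 are closely related DEAD-box RNA helicases that help the small ribosomal subunit load on mRNA and scan to the start codon. Ded1 is the abundant helicase of vegetative budding yeast, and Dbp1 is normally scarce there. Growth at 37C is a mild heat stress for yeast, in which the transcription factors Hsf1 and Msn2/Msn4 control chaperone and general stress genes. A ratio of footprints to mRNA rises when more ribosomes are found per mRNA of a gene, relative to the other genes of the same libraries. Since RPKM values are relative to the depth of each library, a change in the total rate of translation would not be seen.

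The helicase genes were checked first. In DBP1 cells the DED1 gene was at the level of scattered reads, at 1.29 to 2.60 RPKM in footprints and 0.0765 to 3.19 RPKM in mRNA, and its ratio was not interpreted. DBP1 was at 98.3 to 130 RPKM in mRNA and 314 to 515 RPKM in footprints. Depth recovered from the values was 4.42 to 8.70 M reads for the mRNA libraries and 4.82 to 9.22 M reads for the footprint libraries of DBP1 cells. At these depths 1 read in a gene of 1 kb stood for 0.108 to 0.227 RPKM.

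Efficiency fell at 37C in 290 genes, or 5.83% of those tested, and rose in 36, or 0.723%, at an adjusted p under 0.05. Both directions together made 6.55%. Over all 4977 genes the median log2 change in efficiency was -0.06, with quartiles of -0.21 and 0.08, and 3037 changes were negative. Large changes were few: 12 of the higher genes and 26 of the lower ones moved by more than 2-fold. In 1936 genes, or 38.9%, the 37C cultures lay beyond all 30C cultures, which includes all 326 called genes. Lack of overlap in a called gene is therefore a description and adds no evidence to the call. The balance of directions moved with the scaling of the libraries: median-of-ratios scaling gave 69 higher and 146 lower genes and a median change of 0.03. All 36 higher genes were also called under that scaling. When the mRNA and footprint libraries were not paired by culture, 51 genes were called, 3 higher and 48 lower, all of them among the 326. Of the 118 genes named or looked at, 62 lost their call in that fit. Among them were ZRT1, ICL1, GCN4 and HSP26, with adjusted p of 0.901, 0.225, 0.128 and 0.0700.

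The small number of cultures limited these calls. Without 37C culture 1 the test called 127 genes and without culture 2 it called 71, where the lone culture is assumed to vary like the other groups. Calls that held whichever culture of DBP1 cells was left out numbered 39 lower and 5 higher. Among them were SSA4, PHO5, CRC1, YAT2, ALD3, GDB1, MSC1, SIP18, FMP45, PNS1, HAP4, RPL22B and TRA1. With unpaired libraries PHO5, CRC1, YAT2, MSC1, FMP45, PNS1 and RPL22B were not called (adjusted p of 0.0549 to 0.542). The 5 higher ones include STR3, a gene of low level in DBP1 cells that entered the test through DED1 cells. The calls beyond these 39 and 5 each failed without at least 1 culture, and the adjusted p is given for the genes with the largest changes.

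Among the genes that passed the test, the largest gain in efficiency was that of SSA4, a stress-inducible cytosolic Hsp70 chaperone. Its efficiency was 0.261, 0.190 and 0.214 in the 3 cultures at 30C and 1.13 and 1.06 in those at 37C. The groups were far apart, and the log2 change was 2.08 ± 0.15 (SE, n = 3 and 2, adjusted p = 0.000112), a 4.23-fold gain on top of a 6.78-fold rise in its mRNA. HSP26, a small heat shock protein that binds unfolded proteins, stood at 0.409, 0.170 and 0.237 at 30C and at 0.837 and 0.844 at 37C. Its cultures also did not overlap, and efficiency rose 2.72-fold (log2 change 1.44 ± 0.23, adjusted p = 0.00706) while its mRNA rose 16.3-fold. At 30C these HSP26 values rested on 31, 8 and 8 footprint reads. Without 37C culture 2 the adjusted p of HSP26 was 0.0572.

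The 27 chaperone genes listed as Hsf1 targets held 4 genes with higher efficiency and none with lower, and their median log2 change was 0.20 against -0.06 over all genes. The other two called genes were SSA3, a paralog of SSA4, and HSP104, the disaggregase that pulls proteins out of aggregates. SSA3 went from 0.0810, 0.121 and 0.0497 to 0.429 and 0.480, with both 37C cultures above all at 30C, and its adjusted p was 0.0527 and 0.0791 without 37C culture 1 or 2. SSA3 and SSA4 are similar in sequence, and how the authors assigned reads shared by paralogs is not given in the sources used here. HSP104 stood at 0.971, 1.06 and 1.01 at 30C and at 1.71 and 1.21 at 37C. Its change of 0.50 ± 0.12 (adjusted p = 0.0389) rested on 37C culture 1, since without it the value was 0.25 (adjusted p = 0.211), and without any 1 of the 30C cultures the adjusted p was 0.0652 to 0.0989. HSP82, the inducible Hsp90, showed the same unevenness, with 1.19, 1.20 and 1.37 at 30C against 2.24 and 1.29, and did not pass (adjusted p = 0.188). The mRNA of 15 of the 27 genes rose and footprints of 18 rose, and none fell in either assay. UBI4, the stress-inducible polyubiquitin gene, outside this list, rose from 0.610, 0.701 and 0.747 to 0.931 and 0.988 (log2 change 0.48 ± 0.12, adjusted p = 0.0365), and it missed the threshold without 30C culture 1 or 2 or either 37C culture (adjusted p of 0.0704 to 0.198).

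**Figure D1:**
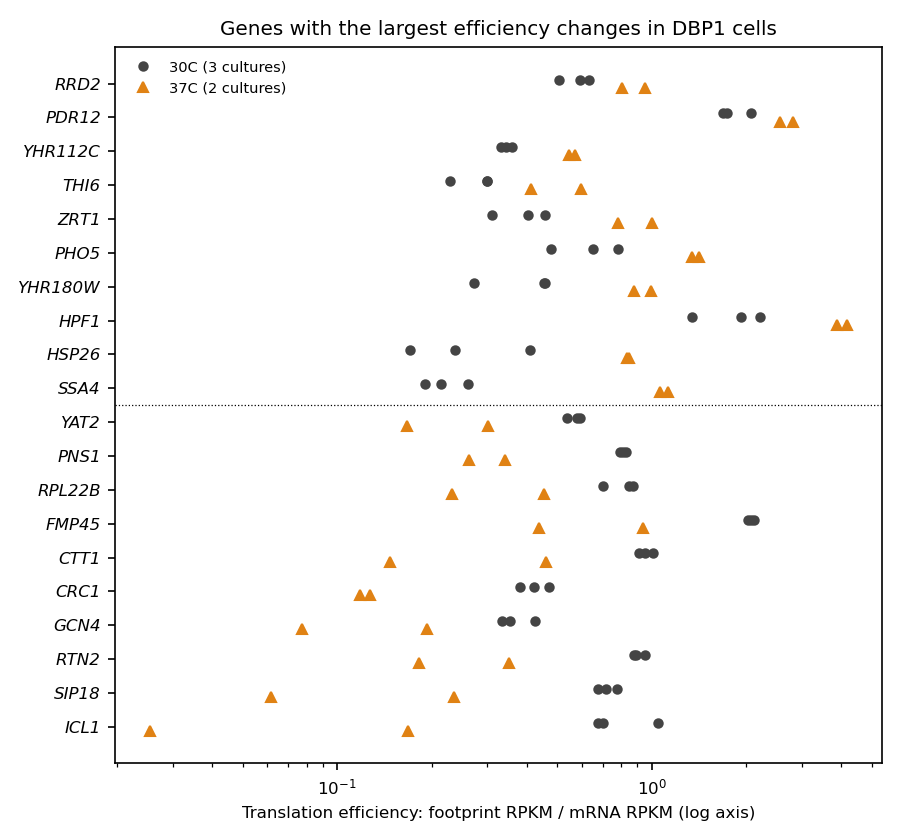
Translation efficiency on a log axis in each culture of DBP1 cells, for the 10 most changed genes in each direction that passed the test and averaged 20 RPKM or more in both assays. Circles are the 3 cultures at 30C and triangles the 2 at 37C, which do not overlap in any gene drawn because non-overlap was a condition for being named. ICL1, SIP18, GCN4 and CTT1 have the widest gaps between their 37C cultures.

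PHO5 and ZRT1, which serve phosphate and zinc uptake, and HPF1 and TIP1, which encode cell wall proteins, were among the named higher genes. PHO5, a secreted acid phosphatase made when phosphate is low, went from 0.649, 0.478 and 0.780 to 1.42 and 1.35, with no overlap (log2 change 1.04 ± 0.15, adjusted p = 0.00526). ZRT1, the high-affinity zinc transporter, went from 0.456, 0.310 and 0.405 to 1.00 and 0.781 (log2 change 1.02 ± 0.20, adjusted p = 0.0145). Its abundance differed widely between the 37C cultures, with mRNA at 1100 RPKM in culture 1 and 220 RPKM in culture 2 against 11.0 to 12.2 RPKM at 30C. Without 37C culture 1 the ZRT1 change was 0.84 (adjusted p = 0.118), and without culture 2 it was 1.20 (adjusted p = 0.0515). Among 22 tested genes for uptake of phosphate, zinc, iron and copper, PHO5 and ZRT1 rose, none fell, and the median log2 change was 0.06.

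HPF1, which encodes a heavily glycosylated cell wall mannoprotein, had the highest efficiency at 37C of the named higher genes. It stood at 1.92, 2.21 and 1.35 at 30C and at 3.88 and 4.18 at 37C (log2 change 1.20 ± 0.22, adjusted p = 0.00999). Leaving out 37C culture 1 or 2 gave an adjusted p of 0.0527 or 0.0844, and HPF1 has a similar paralog, CSS1, which was also called higher. TIP1, another cell wall mannoprotein, went from 1.04, 1.20 and 1.83 to 2.85 and 2.87 (log2 change 1.17 ± 0.24, adjusted p = 0.0172). TIP1 missed the threshold without 30C culture 1 or 2 or either 37C culture (adjusted p of 0.0506 to 0.105) and with 0.1 RPKM added (0.0566). The list of 25 tested cell wall genes moved in both directions, with 2 higher and 3 lower, or 2 and 1 under median-of-ratios scaling. The lower ones were FKS1, a catalytic subunit of glucan synthase, SCW10, a wall glucanase-like protein, and RLM1, a transcription factor of the wall integrity pathway. FKS1 fell from 2.53, 2.57 and 2.92 to 1.73 and 1.70 (log2 change -0.63 ± 0.11, adjusted p = 0.00889), although its mRNA rose 1.45-fold. Its adjusted p was 0.0527 and 0.0685 without 37C culture 1 or 2.

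Of the remaining named higher genes, YHR180W, an open reading frame of unknown role, went from 0.272, 0.455 and 0.458 to 0.992 and 0.877 (log2 change 1.18 ± 0.21, adjusted p = 0.00999). PDR12, a plasma membrane pump for weak organic acids, went from 2.07, 1.73 and 1.69 to 2.82 and 2.56, a gain of 0.59 ± 0.12 on the log2 scale (adjusted p = 0.0181). THI6, a thiamine synthesis enzyme, changed by 0.80 ± 0.21 (adjusted p = 0.0492), YHR112C by 0.63 ± 0.16 (0.0455) and RRD2, a peptidyl-prolyl isomerase, by 0.58 ± 0.11 (0.0125). For these genes the groups did not overlap, but each lost its call when 37C culture 1 was left out, with adjusted p of 0.0747 for YHR180W, 0.122 for PDR12, 0.287 for THI6, 0.181 for YHR112C and 0.110 for RRD2. YHR180W, THI6, YHR112C and PDR12 also lost theirs without 37C culture 2, at adjusted p of 0.0572, 0.0675, 0.172 and 0.0690. THI6 and YHR112C missed the threshold without any 1 of the 3 cultures at 30C too, at adjusted p of 0.0781 to 0.132 and 0.0896 to 0.107, and PDR12 without 30C culture 2 or 3 (0.0585 and 0.0592).

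Among the lower genes, ICL1, the isocitrate lyase of the glyoxylate cycle, had the largest change. Its efficiency was 1.05, 0.676 and 0.702 at 30C and 0.168 and 0.0255 at 37C. The 37C cultures lay far below those at 30C but also far from each other, and they held 18 and 4 footprint reads beside 126 and 165 mRNA reads. The log2 change was -2.40 ± 0.41 (adjusted p = 0.00871). Without 37C culture 2 it was -1.68 (adjusted p = 0.0683). ICL1 mRNA fell by 2.48 on the log2 scale, from 125, 35.8 and 69.5 RPKM to 9.26 and 13.7 RPKM.

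CRC1 and YAT2 serve carnitine-dependent acetyl transfer, which moves acetyl units into mitochondria when cells use carbon sources other than glucose. CRC1, the mitochondrial carnitine carrier, fell from 0.471, 0.382 and 0.424 to 0.127 and 0.118 (log2 change -1.52 ± 0.15, adjusted p = 0.000716). YAT2, a cytosolic carnitine acetyltransferase, fell from 0.593, 0.538 and 0.578 to 0.301 and 0.167 (log2 change -1.18 ± 0.16, adjusted p = 0.00395). Both genes kept their call without any single culture, but not with unpaired libraries (adjusted p = 0.193 for CRC1 and 0.314 for YAT2). The other carnitine acetyltransferases, CAT2 and YAT1, were looked up after these values had been seen. CAT2 went from 0.679, 0.571 and 0.611 to 0.265 and 0.271 (log2 change -1.06 ± 0.18, adjusted p = 0.00831), with an adjusted p of 0.0527 and 0.0572 without 37C culture 1 or 2. YAT1 went from 3.35, 4.51 and 3.51 to 2.90 and 2.45, with its mRNA at only 1.12 and 1.21 RPKM at 37C. The size of its change depended on the RPKM added to each assay: the log2 change was -0.92 ± 0.16 with 1 RPKM (adjusted p = 0.00826) but -0.56 with 0.1 RPKM, where it did not pass (adjusted p = 0.0801). The mRNA of CRC1 and YAT2 fell as well, by 2.75-fold and 2.95-fold.

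Of 34 tested general stress genes controlled by Msn2 and Msn4, 8 had lower efficiency, none higher and 26 did not pass. The median log2 change was -0.13 against -0.06 over all genes, 12 changes were positive, and under median-of-ratios scaling the median was -0.04 with 8 genes lower. The 8 were CTT1, the cytosolic catalase, GDB1, which debranches glycogen, PGM2, a phosphoglucomutase, TKL2, a transketolase, ALD3, an aldehyde dehydrogenase, RTN2, a reticulon of the endoplasmic reticulum, USV1, a putative transcription factor, and MSC1. RTN2 fell from 0.951, 0.878 and 0.892 to 0.182 and 0.351 (log2 change -1.68 ± 0.28, adjusted p = 0.00757). CTT1 fell from 0.912, 0.952 and 1.01 to 0.147 and 0.461 (log2 change -1.44 ± 0.30, adjusted p = 0.0190), from 15 and 36 footprint reads at 37C. MSC1 went from 0.808, 0.750 and 0.773 to 0.333 and 0.360, and PGM2 from 0.857, 1.00 and 1.15 to 0.575 and 0.538. In all 8 genes, as in every gene called lower, both 37C cultures lay below every 30C culture. ALD3, which went from 0.287, 0.388 and 0.465 to 0.0174 and 0.0447, has a near-identical neighbour, ALD2, so its reads are uncertain. The mRNA of 17 of the 34 genes fell and footprints of 18 fell. Leaving out 37C culture 1 gave an adjusted p of 0.0562 for RTN2 and 0.112 for CTT1, whose change was then -0.85, and for CTT1 that without 30C culture 3 was 0.0588. For PGM2 and TKL2 it was 0.0572 and 0.127 without 37C culture 2, and for USV1 0.0670 without 37C culture 1.

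SIP18 and FMP45, which are also stress-regulated, reached very low abundance at 37C. SIP18 encodes a hydrophilic protein made on drying and osmotic stress, and its efficiency fell from 0.774, 0.713 and 0.676 to 0.235 and 0.0618 (log2 change -1.86 ± 0.28, adjusted p = 0.00598). The 37C values came from 3 and 1 footprint reads over 15 and 17 mRNA reads, which gives exact 95% intervals of 0.0436 to 0.830 and 0.00148 to 0.394 from counting alone. FMP45, a membrane protein of the cell cortex, fell from 2.11, 2.02 and 2.07 to 0.939 and 0.437 (log2 change -1.39 ± 0.14, adjusted p = 0.000716). It was counted from 8 and 5 footprint reads and 10 and 12 mRNA reads at 37C, and summed over both cultures its efficiency was 0.657 with an exact interval of 0.304 to 1.36. PNS1, a choline transporter-like protein, was better covered, with 43 and 66 footprint reads at 37C. Its efficiency fell from 0.792, 0.827 and 0.810 to 0.341 and 0.262 (log2 change -1.25 ± 0.14, adjusted p = 0.00119).

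In GCN4 and HAP4 footprints fell more than mRNA. GCN4 encodes the activator of amino acid synthesis genes, and short upstream reading frames in its leader restrict initiation at the main frame. Its mRNA was 1783, 1611 and 1508 RPKM at 30C and 1505 and 1113 RPKM at 37C, a change that did not pass (adjusted p = 0.0589). Its footprints went from 758, 540 and 534 RPKM to 291 and 85.9 RPKM. Efficiency therefore went from 0.425, 0.335 and 0.354 to 0.193 and 0.0772 (log2 change -1.59 ± 0.31, adjusted p = 0.0150). Without 37C culture 2, the lower of the pair, the change was -0.93 (adjusted p = 0.0708).

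HAP4, the activator subunit that drives respiratory gene expression, fell from 0.885, 0.944 and 1.01 to 0.504 and 0.429. The groups did not overlap and the log2 change was -1.01 ± 0.10 (adjusted p = 0.000692), from a 2.41-fold fall in footprints and a 1.20-fold fall in mRNA. The call held without any single culture. HAP4, GCN4 and CLN3, a cyclin that starts the cell cycle, were the called members of a list of 11 tested genes whose mRNA carries known upstream reading frames. CLN3 fell from 0.705, 0.668 and 0.773 to 0.466 and 0.489 (log2 change -0.57 ± 0.14, adjusted p = 0.0407). It missed the threshold without any 1 culture of DBP1 cells (adjusted p of 0.0658 to 0.172) and under median-of-ratios scaling (0.0882), where 2 of the 11 were called. None of the 11 rose, and the median was -0.21. CPA1, a Gcn4-regulated enzyme of arginine synthesis whose leader encodes the arginine attenuator peptide, stood at 0.258, 0.215 and 0.261 at 30C and 0.303 and 0.608 at 37C, and did not pass (adjusted p = 0.132). The 45 tested amino acid synthesis genes under Gcn4 had 33 members with lower mRNA and 33 with lower footprints. In efficiency 3 of them fell, against 5.83% of all tested genes. Under median-of-ratios scaling 1 of them was called. The 3, ARO1, GLT1 and LYS2, are long genes of 4767, 6438 and 4179 bp.

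RPL22B, a minor copy of ribosomal protein L22, was the single called gene among 79 proteins of the large ribosomal subunit. Its efficiency fell from 0.874, 0.849 and 0.699 to 0.456 and 0.231 (log2 change -1.30 ± 0.23, adjusted p = 0.00926), with mRNA at 588, 529 and 638 RPKM against 563 and 472 RPKM. Without 37C culture 2 the change was -0.82 (adjusted p = 0.0450). Its abundant paralog RPL22A did not pass, at 1.23, 1.30 and 1.25 against 1.27 and 1.44 (adjusted p = 0.520). The small subunit had 2 called genes of 57, RPS11A and RPS8B, both lower and both with a near-identical second copy. Neither was called under median-of-ratios scaling (adjusted p of 0.168 and 0.165). The medians of both subunits, -0.04 and -0.02, were close to that of all genes and turned to 0.04 and 0.07 under median-of-ratios scaling. No member of the 20 tRNA synthetases or the 16 elongation and termination factors passed. Among 27 initiation factors, 2 fell, both forms of eIF4G, the scaffold that joins the cap-binding protein to the ribosome. Over all tested genes 5.83% were called lower, which is the share to set the counts of these lists against. TIF4631 and TIF4632 are 2859 and 2745 bp long. In genes over 2000 and up to 3000 bp, 11.1% were called lower. TIF4631 went from 1.76, 1.81 and 1.69 to 1.27 and 1.13 (log2 change -0.55 ± 0.09, adjusted p = 0.00612), and without 37C culture 2 its adjusted p was 0.0593. TIF4632 went from 2.05, 2.45 and 2.60 to 1.53 and 1.59 (log2 change -0.58 ± 0.15, adjusted p = 0.0397), but its adjusted p was 0.0983 to 0.166 without 30C culture 2 or 3 or either 37C culture, and 0.109 under median-of-ratios scaling.

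Factors of mRNA decay had the lowest median of the lists with at least 4 tested genes, at -0.30, or -0.21 under median-of-ratios scaling. Of 22 tested, 5 fell, against 5.83% of all tested genes, none rose, and 20 changes were negative. In DED1 cells the median of this list was -0.20, with 4 genes lower. XRN1, the exonuclease that degrades decapped mRNA from its 5′ end, fell from 1.98, 1.75 and 1.99 to 1.11 and 1.20 (log2 change -0.71 ± 0.11, adjusted p = 0.00706). Its mRNA change did not pass (adjusted p = 0.123) and its footprints fell 1.38-fold. CDC39, the scaffold of the deadenylase complex, fell from 2.08, 2.12 and 2.17 to 1.50 and 1.41 (log2 change -0.52 ± 0.10, adjusted p = 0.0163). LSM1, a subunit of the ring that activates decapping, fell from 1.02, 0.990 and 0.877 to 0.687 and 0.722 (log2 change -0.44 ± 0.09, adjusted p = 0.0139). EDC2, a decapping enhancer, and PAT1, a decapping activator, were the other called genes. XRN1 and CDC39 are 4587 and 6327 bp long, and 29.9% of all genes over 4000 bp were called lower. PAT1 has 2391 bp, while LSM1 and EDC2 are short, at 519 and 438 bp. Under median-of-ratios scaling 2 of the 22 were called. The adjusted p was 0.0533 for XRN1 without 37C culture 1, 0.0639 and 0.125 for CDC39 without 37C culture 1 or 2, and 0.0929 and 0.0683 for LSM1 without these.

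**Figure D2:**
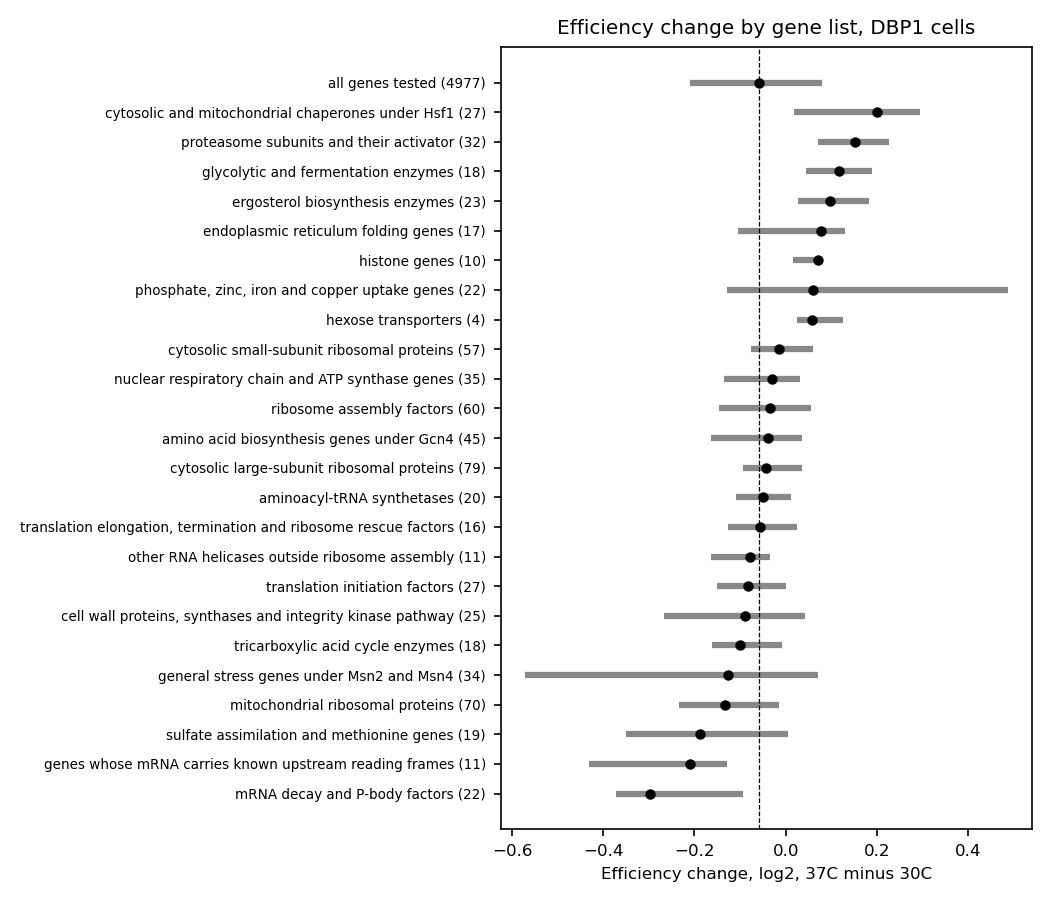
Median (point) and quartiles (bar) of the log2 efficiency change in DBP1 cells over the tested members of each gene list, with the number of genes in brackets. The dashed line is the median of all 4977 genes at -0.06. Chaperones lie furthest to the right at 0.20 and mRNA decay factors furthest to the left at -0.30.

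Many genes of mitochondrial energy metabolism fell in mRNA, where 13.1% of all genes tested fell. Their counts in efficiency are to be set against 5.83% of all tested genes called lower and 0.723% called higher. All 35 nuclear genes for respiratory complexes and ATP synthase fell in mRNA and in footprints, with a median mRNA change of -1.61 and a median footprint change of -1.70, while their median efficiency change was -0.03 and 1 gene, NDI1, passed. NDI1, the internal NADH dehydrogenase, fell from 1.52, 1.55 and 1.68 to 1.16 and 1.24 (adjusted p = 0.0259). Among 18 tricarboxylic acid cycle genes, 16 fell in mRNA and 16 in footprints, and 1, KGD1, fell in efficiency. Mitochondrial ribosomal proteins fell in mRNA in 62 of 70 and in efficiency in 2, MRP20 and RSM7. Under median-of-ratios scaling none of NDI1, KGD1, MRP20 and RSM7 was called, with adjusted p of 0.129, 0.0961, 0.175 and 0.0713. The 18 glycolytic and fermentation enzymes held no called gene and had a median change of 0.12. Proteasome subunits also held none, although 29 of 32 changes were positive with a median of 0.15, and 4 were called as higher under median-of-ratios scaling. Ergosterol enzymes (23 genes, median 0.10), histones (10, median 0.07), endoplasmic reticulum folding genes (17, median 0.08) and other RNA helicases (11, median -0.08) had no called member.

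Ribosome assembly factors had 2 lower genes of 60, against 5.83% of all tested genes. These were UTP20 and RRP5, both scaffold proteins of the small subunit processome and both very long, at 7482 and 5190 bp. Neither was called under median-of-ratios scaling (adjusted p of 0.0615 and 0.0961), nor without any 1 culture of DBP1 cells. Sulfur and methionine genes had 2 lower and 1 higher of 19. The higher one, STR3, a cystathionine beta-lyase, changed from 0.418, 0.443 and 0.550 to 1.71 and 1.08 at a mean of only 3.85 RPKM in footprints of DBP1 cells. It entered the test through its level in DED1 cells. MET5, a sulfite reductase subunit of 4329 bp, and SAM1 were the lower ones. MET5 changed by -0.76, or -0.47 without 37C culture 2 (adjusted p = 0.0986), and SAM1 was not called under median-of-ratios scaling (adjusted p = 0.186). The 8 genes of the mitochondrial genome were not tested because none reached the level filter in both assays.

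More genes passed the test in mRNA or in footprints than in efficiency. In DBP1 cells 1635 genes, or 30% of 5454 tested, rose in mRNA and 715, or 13.1%, fell. In footprints 1059 of 4986, or 21.2%, rose and 879, or 17.6%, fell. The median mRNA change was 0.18 on the log2 scale and was 0.02 after median-of-ratios scaling, under which 713 genes were higher and 1049 lower in mRNA, and 761 higher and 1040 lower in footprints. Over the 4977 genes the mRNA and footprint changes had a Pearson correlation of 0.889 across genes, which are not independent replicates.

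The 290 genes with lower efficiency fell into several patterns. In 112 of them mRNA rose while footprints did not pass the test, and in 81 footprints fell while mRNA did not pass. Both fell in 41, neither passed in 40, mRNA rose and footprints fell in 10, and both rose in 6. These patterns were counted under RPKM scaling only and depend on it. Under median-of-ratios scaling 146 of the 290 were still called lower. Over all genes tested in mRNA, 713 were then higher and 1049 lower, against 1635 and 715. TRA1, a very large subunit of the SAGA and NuA4 complexes, is an example of the first pattern. Its mRNA went from 10.6, 10.1 and 9.93 RPKM to 33.8 and 26.2 RPKM, with footprints at 17.5, 15.4 and 17.7 RPKM against 18.4 and 13.3 RPKM. Its efficiency fell from 1.65, 1.53 and 1.79 to 0.544 and 0.507 (log2 change -1.56 ± 0.11, adjusted p = 0.000112). GCN4 and RPL22B belong to the second pattern, and ICL1, CRC1 and RTN2 to the third. Of the 36 genes with higher efficiency, 23 rose in both assays.

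**Figure D3:**
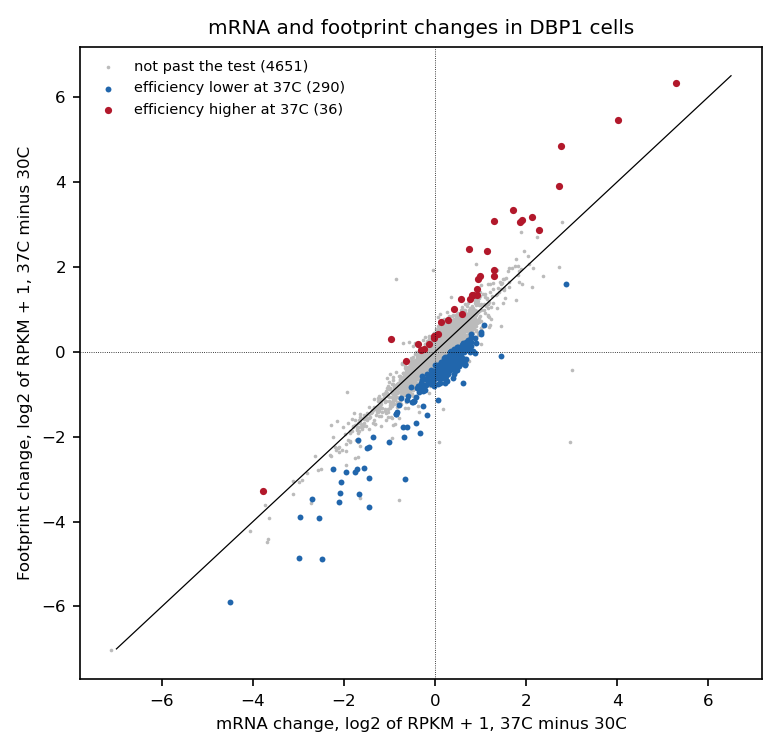
Change in footprints against change in mRNA in DBP1 cells, as log2 of RPKM + 1 at 37C minus 30C, with 1 point per gene. The diagonal marks equal change, which leaves efficiency as it was. The 36 higher genes lie above it, mostly to the right, and the 290 lower genes below it. Under RPKM scaling, the only one drawn, 128 of the lower genes had risen in mRNA.

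The genes with lower efficiency were longer and less abundant than the rest. Their median gene length was 2046 bp against 1226 bp over all genes and 1206 bp for the higher genes. Median mRNA was 33.0 RPKM in the lower genes against 68.8 RPKM over all genes. The lower genes also had a higher efficiency at 30C, with a median of 0.913 against 0.670, while the higher genes started at 0.577. Efficiency at 30C enters the change itself, so these last values are a description.

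Across classes of length, the median log2 change was -0.02 in the 539 genes up to 500 bp, -0.01 in those over 500 and up to 1000 bp, -0.03 up to 1500 bp, -0.09 up to 2000 bp, -0.14 up to 3000 bp, -0.17 up to 4000 bp and -0.29 in the 154 genes longer than 4000 bp. The share of genes called lower went from 1.86% in the shortest class to 29.9% in the longest. Both cultures at 37C were lowest in the long classes, with -0.01 in the shortest and -0.23 in the longest class for culture 1 and -0.04 and -0.34 for culture 2. Median-of-ratios scaling moved every class up, to 0.07 in the shortest and -0.20 in the longest. The median mRNA change rose across the classes from -0.08 to 0.39, whereas the median footprint change was -0.11 in the shortest class, 0.18 in genes over 3000 and up to 4000 bp and 0.09 in the longest. Long genes were also more often called lower within bins of mRNA level. In genes up to 20 RPKM, 20% of those over 2000 bp were called against 6.41% of those up to 1000 bp. Above 100 RPKM the shares were 6.25% and 1.85%. The median change did not follow length in genes up to 20 RPKM. There it was -0.29 up to 1000 bp, -0.19 up to 2000 bp and -0.24 over 2000 bp. In the other bins it was lowest over 2000 bp, with -0.11 against 0.02 up to 1000 bp above 100 RPKM. Long genes hold more reads at the same RPKM, and the part of this in the share called was not tested. In DED1 cells the median went from 0.10 in the shortest to -0.33 in the longest class.

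**Figure D4:**
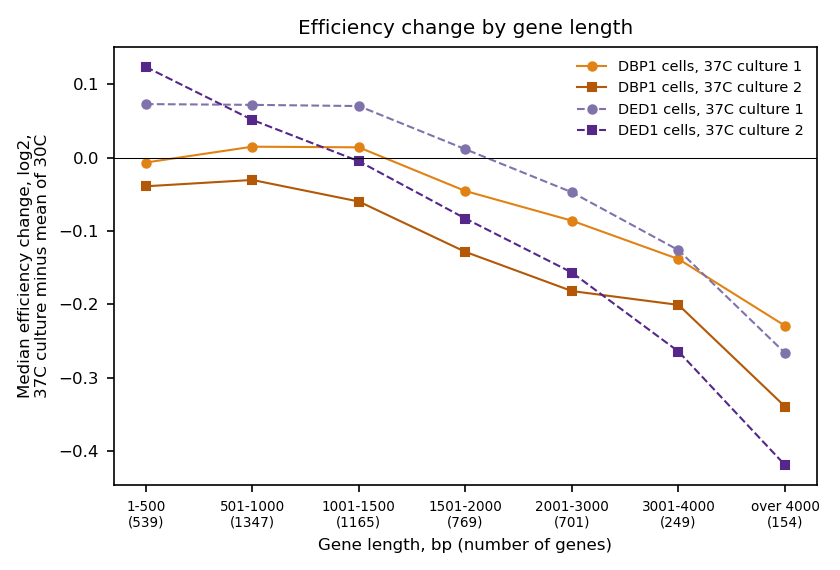
Median log2 efficiency change of each 37C culture against the mean of the 30C cultures of the same strain, by class of gene length in bp, with the number of genes in brackets. Solid lines are DBP1 cells and dashed lines DED1 cells. In DBP1 cells culture 1 reached -0.23 and culture 2 -0.34 in genes over 4000 bp, and DED1 cells reached -0.27 and -0.42.

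The temperature response of DBP1 cells was set against that of DED1 cells, which share no cultures with them. The title endings that go with temperature are the same in both strains, so an effect of experiment could be shared too. In DED1 cells 228 genes, or 4.58%, fell and 94, or 1.89%, rose, 6.47% in all. Lower in both strains were 140 genes, 48.3% of the DBP1 list and 61.4% of the DED1 list. Higher in both were 16, or 44.4% and 17% of the lists. Of the 290 lower genes, 276 also had a negative change in DED1 cells, and of the 36 higher ones 35 had a positive one. Over all 4977 genes, 2527 changes in DED1 cells were negative and 2450 positive. Both lists of calls came from 1 fit with a shared spread per gene, so a small spread favours a call in both strains. The Pearson correlation of the changes in the strains was 0.55 and the Spearman correlation 0.578 over 4977 genes. No gene (0%) passed the test of the difference between the strains in limma, where 304 had an unadjusted p under 0.05, and none passed when libraries were not paired by culture.

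**Figure D5:**
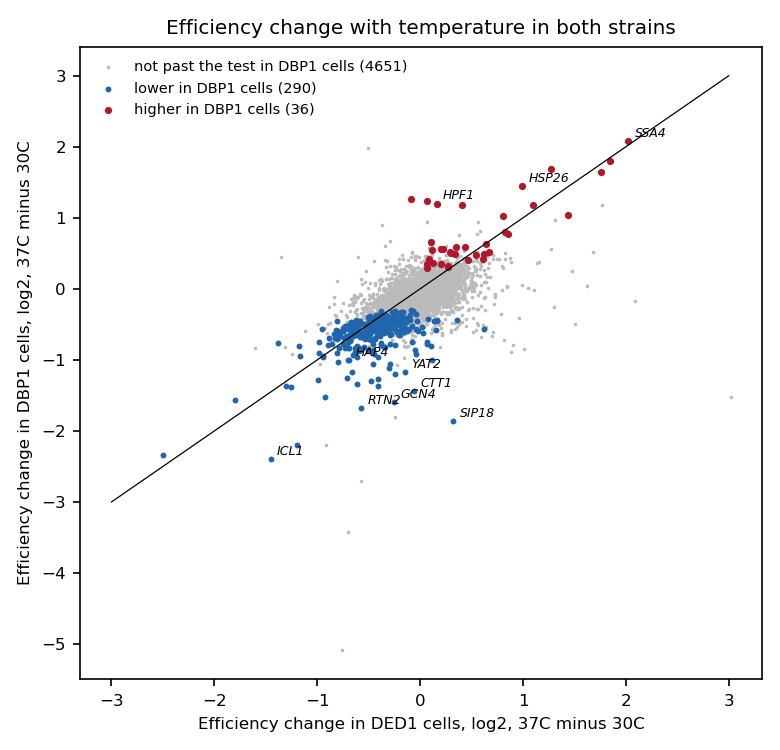
Efficiency change at 37C in DBP1 cells against that in DED1 cells, as log2 of the ratio with 1 RPKM added to each assay, with 1 point per gene and the diagonal of equal change. SSA4 lies near the diagonal at 2.08 and 2.02, and SIP18 lies furthest from it among the labelled genes at -1.86 and 0.32. No gene passed the test of the difference between the strains.

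The closest to that threshold was SWC5, a subunit of the SWR1 chromatin complex, with efficiency falling in DBP1 cells from 0.971, 0.978 and 1.01 to 0.704 and 0.725 and rising in DED1 cells from 0.763, 0.798 and 0.763 to 0.946 and 1.06. The difference was -0.80 (95% interval -1.04 to -0.56, adjusted p = 0.0960). GCN4 stood at 0.329, 0.345 and 0.258 at 30C and at 0.289 and 0.231 at 37C in DED1 cells, so its change there was -0.25 (adjusted p = 0.673). The difference of -1.34 had an unadjusted interval of -2.31 to -0.36 and did not pass (adjusted p = 0.666). HAP4 fell in both strains, with changes of -1.01 and -0.69. SSA4 rose in both, by 2.08 and 2.02, with an interval of the difference from -0.41 to 0.52. HPF1 changed by 1.20 in DBP1 cells and 0.16 in DED1 cells (difference adjusted p = 0.620).

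In several stress genes the strains already lay apart at 30C. MSC1 had 0.808, 0.750 and 0.773 in DBP1 cells and 0.435, 0.313 and 0.423 in DED1 cells at 30C, but 0.333 and 0.360 against 0.363 and 0.277 at 37C. RTN2 had 0.878 to 0.951 against 0.196 to 0.437 at 30C, and 0.182 and 0.351 against 0.180 and 0.212 at 37C. CTT1 had 0.912 to 1.01 against 0.300 to 0.501 at 30C, and 0.147 and 0.461 against 0.284 and 0.499 at 37C. In these genes, picked as examples, the 30C cultures of DBP1 cells were above all those of DED1 cells, while the 37C cultures of the strains overlapped. PGM2 and SIP18 were also higher in DBP1 cells at 30C but did not overlap at 37C. There PGM2 had 0.575 and 0.538 in DBP1 cells against 0.681 and 0.737 in DED1 cells. SIP18 had 0.235 and 0.0618 against 0.556 and 0.559. The part of the 30C level in the temperature change was not tested. The median change of the 34 Msn2/Msn4 genes was -0.13 in DBP1 cells and 0.11 in DED1 cells, where 2 rose and 1 fell.

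DBP1 itself was translated at high efficiency from the DED1 regulatory regions. Its ratio was 3.96, 4.38 and 4.25 at 30C and 3.20 and 2.72 at 37C, or 4.20 ± 0.219 (SD, n = 3) and 2.96 ± 0.335 (SD, n = 2). The groups did not overlap, and the level at 30C was 1.42 times that at 37C. By exact permutation of the 5 cultures, two-sided, p was 0.1, which is the lowest value possible with groups of 3 and 2, and in the fit over all genes the log2 change of -0.51 ± 0.15 did not pass (adjusted p = 0.0717). Its mRNA did not pass either (adjusted p = 0.472), while its footprints fell 1.55-fold (adjusted p = 0.000942). The labels do not say whether the gene's own locus was also present, and reads from both places could not be told apart.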

How the data were processed

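Messenger RNA and ribosome footprints were sequenced from SK1 yeast in 20 libraries of 10 cultures. Per the labels' protocols, RNA of 28 to 31 nt was selected for footprints and of 50 nt for mRNA. The authors deposited 1 table of RPKM values for 6679 genes. Its second header line names 1 mRNA column, that of DBP1 37C culture 2, as a footprint column. That line also miswrites a strain number in 2 columns. The sample descriptions were followed for all columns. CASAVA, bcl2fastq 2.17 and Bowtie2 are named in the submitters' processing notes. Not given in the sources used here are the genome build, the counting tool and how strand and shared reads were treated. Gene names and lengths, introns included, came from RefSeq R64 of strain S288C, which matched 5994 genes, or 89.7%. No sequences are shown.

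From these values, log2((footprint RPKM + 1) / (mRNA RPKM + 1)) was computed per culture and fitted with limma 3.58.1 in R 4.3.3. The fit held all 10 cultures with 1 mean per strain and temperature, an intensity trend and two-sided tests with Benjamini-Hochberg adjustment. Called genes have an adjusted p under 0.05. Folds are on the scale with 1 RPKM added, which moves changes of low genes toward or away from 0, whereas ratios printed per culture are without it. Libraries were paired by culture because the residuals of the footprint and mRNA libraries of a culture correlated at 0.24 to 0.655 over genes. Levels of mRNA and footprints were fitted likewise as log2(RPKM + 1). DBP1's own efficiency was compared by an exact permutation test.

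Depth was worked out from the spacing of low values. With gene lengths shortened by 60 nt, 85.2% to 90.5% of the values under 200 reads came out whole within 0.02, and depth was 3.94 to 9.69 M reads per library over both assays. Intervals on read counts are exact Clopper-Pearson ones and cover counting error only.

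The named genes were up to 10 per direction with the largest change among genes that passed the test, averaged 20 RPKM or more in both assays of DBP1 cells and had no overlap between temperatures, up to 3 per gene list by smallest p, and DED1, DBP1 and GCN4. That mean could be reached through 1 temperature alone, so it does not guard the level at each temperature. In footprints, SSA4, HSP26, YHR180W, PHO5, ZRT1, THI6, YHR112C and, by a small margin, RRD2 reached it only through 37C. ICL1, SIP18, RTN2, CRC1, CTT1, FMP45, PNS1, YAT2, MSC1 and PGM2 reached it only through 30C. Most of the genes with the largest changes are thus among those that the condition let in through 1 temperature. Other called list members, CSS1, HSP82, RPL22A, UBI4, SWC5, TRA1, CAT2, YAT1 and the genes under other observations were named after their values had been seen. The members and the 27 gene lists were chosen with earlier results of these data known. MLP1, a nuclear pore gene entered by mistake, was removed from the cell wall list after its values were seen. Alternatives were pseudocounts of 0.1 and 5 RPKM, no level filter, a filter at 20 RPKM, median-of-ratios scaling, unpaired libraries, a replicate block, no trend, DBP1 cells alone, and leaving out each culture. The code was tested on simulated data.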

Additional observations from a re-analysis of the deposited data

How the results depend on the processing

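The count of 326 genes called for efficiency in DBP1 cells was 317 and 352 with pseudocounts of 0.1 and 5 RPKM, 275 without a level filter, 282 without the trend and 258 from DBP1 cells alone. A filter on DBP1 cells only, chosen after seeing the data, gave 325. It was 195 at a mean of 20 RPKM, where fewer genes were tested, 215 under median-of-ratios scaling and 51 with unpaired libraries, and the cause of the last changes was not tested. Leaving out 1 culture gave 71 to 327 calls: 189, 205 and 176 without DBP1 30C cultures 1, 2 and 3, and 127 and 71 without 37C cultures 1 and 2. For DED1 cells the 322 calls became 49 with unpaired libraries and 35 to 300 without 1 culture, with 124, 127, 127 and 35 without 30C cultures 2 and 3 and 37C cultures 1 and 2. The strain difference gave 1 call at a mean of 20 RPKM and 0 to 4 without 1 culture, with 4 when DBP1 37C culture 1 was left out. The mRNA count of 2350 ranged from 1358 to 2410 and the footprint count of 1938 from 1290 to 1999 without 1 culture, lowest in both without DBP1 37C culture 2. The efficiency difference of DBP1 itself, -1.24, ranged from -1.47 to -1.0.

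Same-numbered cultures at 30C and 37C correlated at 0.081 and 0.0718 in DBP1 cells. Between the strains they correlated at 0.133, -0.0767 and 0.156 at 30C and at 0.313 for both pairs at 37C. Not every pair passed 0.1, so the numbers were not taken as pairs. A replicate block gave 265 calls in DBP1 cells, 260 in DED1 cells, 0 for the difference, 2476 for mRNA and 1974 for footprints. In all 118 genes were named by rule or after their values were seen. Many of them were not called in the main fit and had no call to lose, so the counts are not shares of 118. Of them 62 lost their call with unpaired libraries, 19 under median-of-ratios scaling, 22, 25 and 24 without DBP1 30C cultures 1, 2 and 3, 42 and 44 without 37C cultures 1 and 2, and 4 to 19 without a culture of DED1 cells. SSA4, SIP18 and HAP4 kept theirs under all of these. Signs turned only in 3 genes that did not pass, when 1 culture was left out, over ranges of -0.021 to 0.13 for HXT1, -0.11 to 0.76 for DED1 and -0.012 to 0.17 for HTZ1. Depth limits ICL1, SIP18, FMP45, STR3 and YAT1, whose values at 37C rest on few reads. With 5 RPKM added, the changes of several low genes moved by over 1.5 times but stayed called, for example to -1.17 in ICL1, -0.90 in CRC1, -0.87 in SIP18 and 0.86 in HSP26.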

Other observations

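Among the 39 lower genes whose call held without any 1 culture of DBP1 cells were several regulators, named after their values had been seen. PUF3, which binds mRNAs of mitochondrial proteins, went from 3.58, 3.67 and 3.51 to 1.85 and 2.04 (log2 change -0.87 ± 0.12, adjusted p = 0.00348), with mRNA at 18.9 to 21.5 RPKM at 30C and 24.5 and 20.5 RPKM at 37C. HEL2, a ubiquitin ligase that senses collided ribosomes, went from 0.898, 0.793 and 0.909 to 0.451 and 0.513 (log2 change -0.83 ± 0.12, adjusted p = 0.00526). AFT1, the iron-responsive transcription factor, went from 0.289, 0.312 and 0.330 to 0.157 and 0.181 (adjusted p = 0.00690), and RGT1, the repressor of hexose transporter genes, from 0.651, 0.605 and 0.676 to 0.352 and 0.411 (adjusted p = 0.00526). IRA1, an inhibitor of Ras, changed by -0.95 ± 0.12, and TPK2, a catalytic subunit of protein kinase A, by -0.82 ± 0.12. All 6 genes were also called lower in DED1 cells, with changes from -0.50 for PUF3 to -1.17 for IRA1. With unpaired libraries AFT1, RGT1, IRA1 and TPK2 were not called in DBP1 cells (adjusted p of 0.0605 to 0.139).

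ARC19, ARC40, CMD1 and UBA1 had smaller gains in efficiency and were named after their values had been seen. ARC19 and ARC40, subunits of the Arp2/3 complex that branches actin filaments, changed by 0.41 ± 0.09 (adjusted p = 0.0239) and 0.35 ± 0.09 (adjusted p = 0.0380) on the log2 scale. ARC19 stood at 0.957, 0.934 and 0.954 at 30C and at 1.19 and 1.34 at 37C, with no overlap, while its change in DED1 cells was 0.09 (adjusted p = 0.624). CMD1, calmodulin, went from 1.31, 1.32 and 1.34 to 1.62 and 1.64 (adjusted p = 0.0447). UBA1, the ubiquitin-activating enzyme, went from 1.42, 1.45 and 1.63 to 1.91 and 1.93 (adjusted p = 0.0315). These calls were not firm: ARC19 and CMD1 missed the threshold without any 1 culture of DBP1 cells (adjusted p of 0.0527 to 0.189 and 0.0904 to 0.200), and ARC40 and UBA1 without 30C culture 1 or 2 or either 37C culture (0.0963 to 0.156 and 0.0864 to 0.158). The difference between the strains did not pass for any of these genes.

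ZPS1, ZRC1 and VTC5, which are outside the list of uptake genes and were named after their values had been seen, were also among the 36 higher ones. ZPS1, a secreted protein whose mRNA responds to zinc, went from 0.145, 0.134 and 0.111 to 0.828 and 0.318 (log2 change 1.68 ± 0.30, adjusted p = 0.00941), with the 37C cultures well apart and a change of 1.04 without culture 1 (adjusted p = 0.0407). Its mRNA was 58.3 RPKM in 37C culture 1 and 25.7 RPKM in culture 2, the same order as in ZRT1 and PHO5. ZRC1, a vacuolar zinc transporter, went from 0.777, 0.742 and 0.783 to 0.960 and 0.926 (adjusted p = 0.0476), and missed the threshold without any 1 culture of DBP1 cells (adjusted p of 0.0882 to 0.195). VTC5, a subunit of the polyphosphate polymerase, went from 0.320, 0.384 and 0.341 to 0.599 and 0.559 (log2 change 0.66 ± 0.10, adjusted p = 0.00679). With unpaired libraries VTC5, ZPS1 and ZRC1 were not called (adjusted p of 0.256, 0.437 and 0.561).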
